A study of Rattus norvegicus with 16 samples.

Results

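The transcripts described here are those of 9 genes that move calcium through the cardiac muscle cell, or that act on the proteins which do so: Atp2a2, Pln, Ryr2, Casq2, Slc8a1, Cacna1c, Camk2d, Camk4 and Fkbp1b. They were taken by gene symbol from the annotation of the array, and every probe set annotated to one of them alone was kept and is reported on its own, whatever its brightness. All 9 genes were on the array, with 19 of its 15866 non-control probe sets. The array held 10411 named genes in all. The RNA came from the left ventricle, with the septum, of male rats, with 4 rats in each of 4 groups and 1 array per rat. The stated age of 12 to 14 weeks is that before the 4 weeks of exposure, after which the hearts were taken. SH-DE rats were spontaneously hypertensive (SH) rats that inhaled diesel exhaust (DE) at 2.0 mg/m3, 5 days per week for 4 weeks, and SH-air rats were of the same strain and breathed filtered air. WKY-DE and WKY-air rats were of the normotensive Wistar Kyoto (WKY) strain under the same regimens. The sample records give 6 h of exposure per day, whereas the published methods give a shorter day. The comparisons ask how exposure changes cardiac expression in a healthy strain and in one with hypertension, and how the strains differ.

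In each heartbeat calcium enters the cardiomyocyte through the L-type channel of the surface membrane, whose pore is encoded by Cacna1c, and triggers a larger release from the sarcoplasmic reticulum (SR) through the ryanodine receptor encoded by Ryr2. The muscle relaxes as the pump SERCA2 (Atp2a2) returns calcium to the SR and the sodium-calcium exchanger (Slc8a1) carries the rest out of the cell. Phospholamban (Pln) holds the pump back until it is phosphorylated, calsequestrin (Casq2) buffers calcium inside the SR, FKBP12.6 (Fkbp1b) binds the ryanodine receptor, and the calmodulin-dependent kinases (Camk2d, Camk4) respond to the calcium signal.

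Each probe set had 1 signal per array, a linear intensity. Median signals of the 16 arrays ran between 173 and 216, and pairs of arrays correlated at 0.933 to 0.968, with WKY-air replicate 1 the least like the rest. Differences between groups are given as log2 of the signal plus 16.2, an offset that shrinks the differences of dim probe sets. A probe set is said to be called when its limma p was under 0.01 and its Benjamini-Hochberg adjusted p, over all 15866 probe sets, was under 0.05. The summed signal of 9 of 10 ventricular cardiomyocyte markers was 215488 to 266253 in SH-DE, 269468 to 286130 in SH-air, 205800 to 293191 in WKY-DE and 275147 to 370039 in WKY-air. Myl7, an atrial myosin light chain, had signals of 94.2 to 7876 in SH-DE against 33.4 to 154 in SH-air, and of 404 to 9630 in WKY-DE against 4415 to 25946 in WKY-air. Of 5 atrial markers 4 were on the array, with a summed signal of 12676 to 33226 in SH-DE, 11863 to 23519 in SH-air, 11551 to 41724 in WKY-DE and 31842 to 94242 in WKY-air, and 3 of the 4 were called lower in SH-air than in WKY-air. Of 9 probe sets for 7 fibroblast markers, 6 were called lower in SH-air than in WKY-air and 1 was called lower in WKY-DE, and their summed signal was 18651 to 21308 in SH-DE, 15947 to 19657 in SH-air, 18933 to 25142 in WKY-DE and 24337 to 33234 in WKY-air. The part of these markers in the strain and exposure differences below was not tested except where a covariate fit is given. Left ventricle is a mixture of cells, so that fewer cells of a type and less RNA per cell cannot be told apart here.

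Of the 19 probe sets, 1 was called in 1 comparison. Camk4 probe set 1369753_at was higher in WKY-DE than in WKY-air, a comparison in which 1.88% of all probe sets were called, 217 higher and 81 lower, or 44 higher and 47 lower after quantile normalization. No member was called between SH-DE and SH-air, where limma called 0% of the array and 6.16% had an unadjusted p under 0.05. None was called between SH-DE and WKY-DE, where 0.813% of the array was called, or between SH-air and WKY-air, where 3.15% was called. None was called between SH-DE and WKY-air, which mixes strain with exposure and where 1.94% of the array was called. The strain by exposure interaction, which asks whether DE acted differently in the strains, called 0.0063% of the array and no member. An unadjusted p under 0.05 was reached by 1 of 19 members between SH-DE and SH-air, by 5 between WKY-DE and WKY-air (20.5% of the array), by 2 between SH-DE and WKY-DE (13.3%), by 2 between SH-air and WKY-air (17.5%) and by 4 in the interaction (12.5%). All 4 rats of one group lay beyond all 4 of the other for 2 members between SH-DE and SH-air (4.08% of the array), 2 between WKY-DE and WKY-air (12.7%), 1 between SH-DE and WKY-DE (8.8%) and 2 between SH-air and WKY-air (11.3%).

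The members' median log2 difference was -0.12 between SH-DE and SH-air, with 17 of 19 negative (Fkbp1b counted), while the median over the array was 0.00. The members include 3 of the 100 brightest probe sets, whose median was -0.19. After quantile normalization Atp2a2 1369065_a_at was positive at 0.04, and the Casq2 probe sets were at 0.03 and 0.01. The other members kept their sign. Between WKY-DE and WKY-air the members' median was 0.02, with 10 of 19 positive, beside 0.10 over the array, or 0.01 over the array after quantile normalization. The strains differed by a median of -0.08 under DE, beside -0.09 over the array, and of 0.05 in air, beside 0.02. The sign of the DE effect was shared between the strains, which have no array in common, by 11 of 19 members (57.9%) and by 52.4% of the array. The sign of the strain effect was shared between DE and air by 8 of 19 (42.1%) and by 53.3% of the array. Among the 18 members other than Fkbp1b, the 95% interval of the DE effect lay within 1.5-fold in either direction for 8 in SH rats and for 8 in WKY rats. That of the strain effect did so for 11 of 18 under DE and for 10 in air, and larger changes were not excluded for the others.

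**Figure D1:**
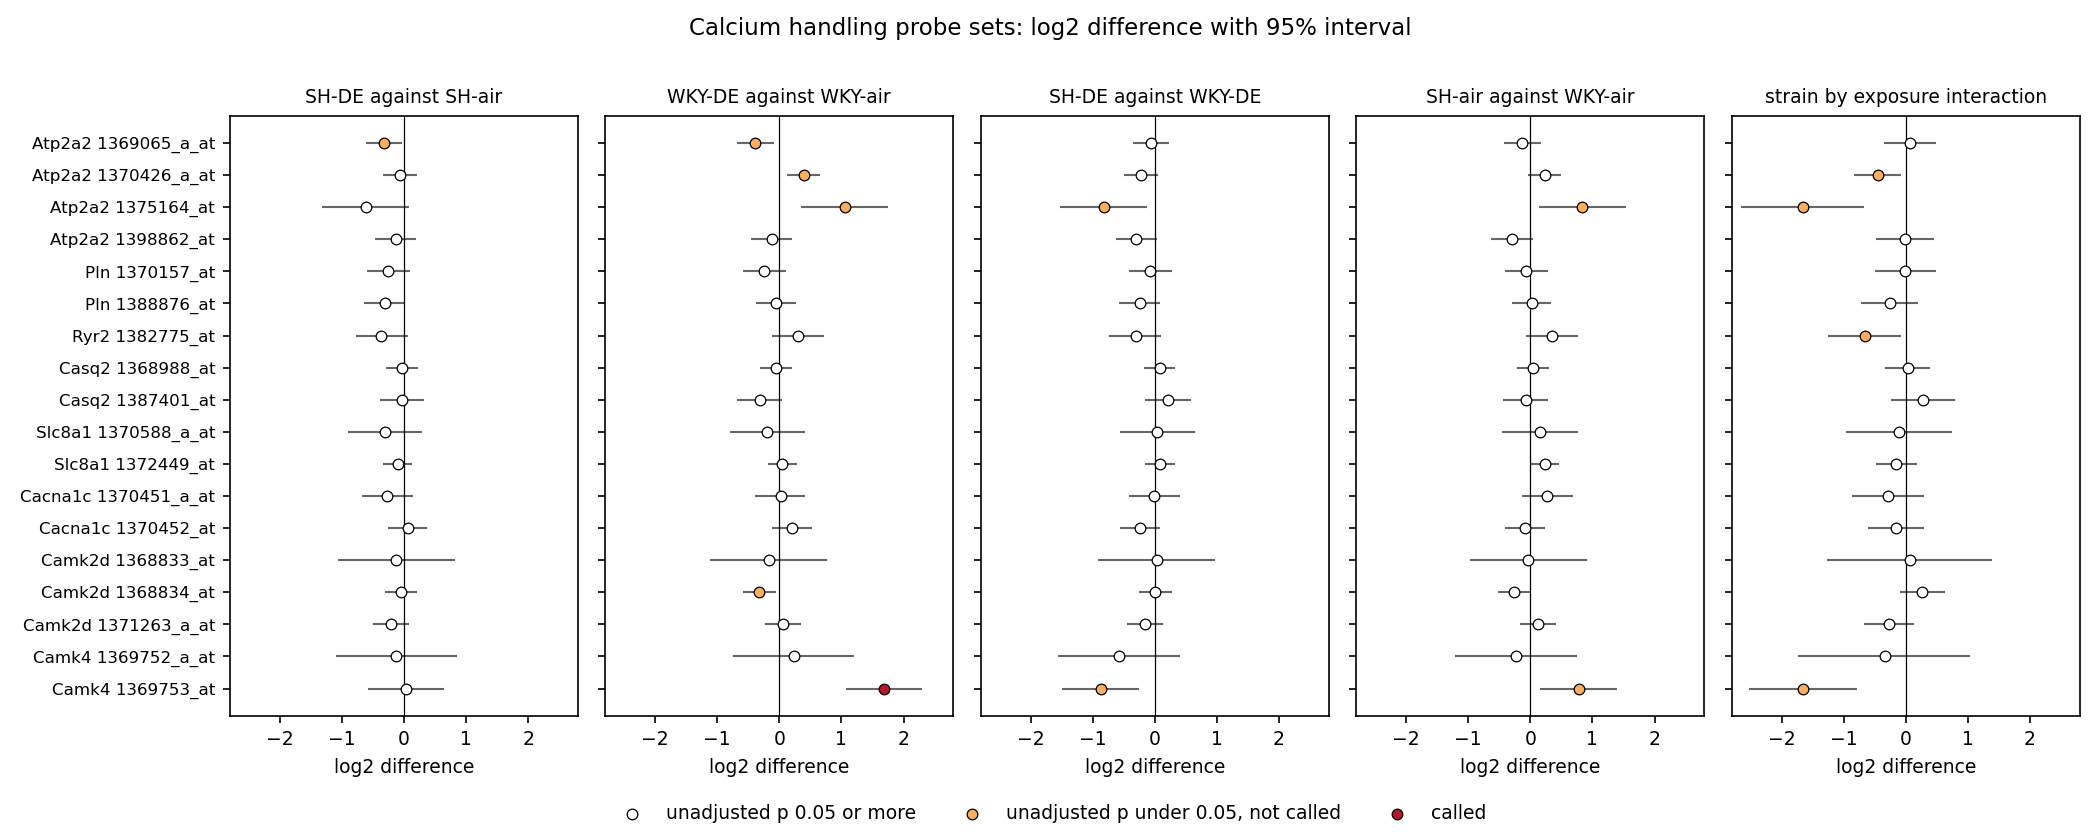
Log2 difference (points) with its 95% interval (lines) for 18 calcium handling probe sets in 4 group comparisons and in the strain by exposure interaction. Fkbp1b is left out because its signals lay below the offset, and the only called value, in red, is Camk4 1369753_at at 1.69 between WKY-DE and WKY-air.

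Atp2a2, the SR calcium pump, was measured by 4 probe sets, and these did not move together. Probe set 1369065_a_at had the rank of 2 on the array by mean signal. Its signals were 38772, 42259, 42173 and 35560 in SH-DE against 50563, 50567, 48344 and 48445 in SH-air. In the other strain they were 35986, 35840, 47233 and 47506 in WKY-DE against 67239, 49500, 54568 and 46754 in WKY-air. All 4 SH-DE arrays lay below all 4 SH-air arrays, as they did for 2.04% of the array's probe sets, whereas the WKY groups overlapped. The log2 difference was -0.32 ± 0.14 (SE, n = 4 each) in SH rats (limma adjusted p = 0.795) and -0.39 ± 0.14 in WKY rats (limma adjusted p = 0.136). Neither was called, and the interaction was 0.07 ± 0.19.

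The brightest transcripts of these arrays had mostly lower means under DE. Of the 100 brightest probe sets, 92 were lower in SH-DE than in SH-air, with a median log2 difference of -0.19, and in the other strain 97 had a lower mean in WKY-DE, with a median of -0.25. The difference of Atp2a2 1369065_a_at was matched or exceeded by 10 of those 100 in SH rats and by 18 in WKY rats, itself included. After quantile normalization, which gives every array the same distribution of signals, its log2 difference was 0.04 ± 0.09 in SH rats and 0.02 ± 0.09 in WKY rats. The probe set ranked between 1 and 7 on every array, and quantile normalization by its construction lets such a probe set take only the few values of those ranks. The part of array brightness in the deposited signals of Atp2a2 was not tested further. Dimmer probe sets had positive medians in WKY rats. Among 3173 that include Camk4 1369753_at and Atp2a2 1375164_at, the median was 0.27 between WKY-DE and WKY-air, or 0.06 after quantile normalization. Among the next 3173 in brightness it was 0.19, or 0.03 after quantile normalization, and among the dimmest 3174 it was 0.09, or -0.06.

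Probe set 1370426_a_at of the same gene had signals of 4461, 3794, 4260 and 4967 in WKY-DE against 3117, 3967, 3097 and 3187 in WKY-air. The groups overlapped through the second WKY-air array. The log2 difference was 0.39 ± 0.13 (SE, n = 4 each, limma adjusted p = 0.112), opposite in sign to that of 1369065_a_at, and after quantile normalization it was 0.47 ± 0.12 (adjusted p = 0.0774). In SH rats the signals averaged 3735 ± 245 in SH-DE and 3919 ± 494 in SH-air (SD, n = 4 each), with a log2 difference of -0.06 ± 0.13. The interaction was -0.45 ± 0.18 (limma adjusted p = 0.327).

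Probe set 1375164_at was dimmer, with signals of 104, 92.8, 19.4 and 137 in SH-DE against 142, 160, 102 and 102 in SH-air. In WKY rats it had 141, 141, 138 and 166 in WKY-DE against 58.6, 73.1, 55.3 and 63.2 in WKY-air. Every WKY-DE array and every SH-air array was above every WKY-air array, as they were for 8.39% and 5.66% of the array's probe sets, and the third SH-DE array was below all others. The log2 difference was 1.05 ± 0.33 between WKY-DE and WKY-air (limma adjusted p = 0.1) and 0.84 ± 0.33 between SH-air and WKY-air (adjusted p = 0.199), and the interaction was -1.66 ± 0.46 (limma adjusted p = 0.219). In a fit without that SH-DE array the differences were 1.05 and 0.84 and both were called in limma, with adjusted p = 0.0126 and adjusted p = 0.0103. With group means removed, the probe set correlated at -0.60 with the mean log2 level of the atrial light chains Myl4 and Myl7 over 16 arrays, and at -0.16 over 15 arrays without SH-DE replicate 3. With that level as a covariate, in a fit of all 16 arrays chosen after seeing the data, the 2 differences were 0.61 ± 0.32 and -0.23 ± 0.49. The level was 6.26 to 7.45 in SH-air and 11.41 to 13.87 in WKY-air. These groups did not overlap, so the second value cannot separate the level from strain.

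Probe set 1398862_at averaged 1080 ± 222 in SH-DE and 1178 ± 177 in SH-air, and 1320 ± 128 in WKY-DE and 1443 ± 175 in WKY-air (SD, n = 4 each). Its log2 difference was -0.13 with a 95% interval of -0.46 to 0.20 in SH rats and -0.12 with an interval of -0.46 to 0.21 in WKY rats. With group means removed, the 6 pairs of Atp2a2 probe sets correlated between -0.61 and 0.10 over the 16 arrays. Which Atp2a2 transcripts each probe set detects was not looked up, and signals of different probe sets are not compared as levels.

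**Figure D2:**
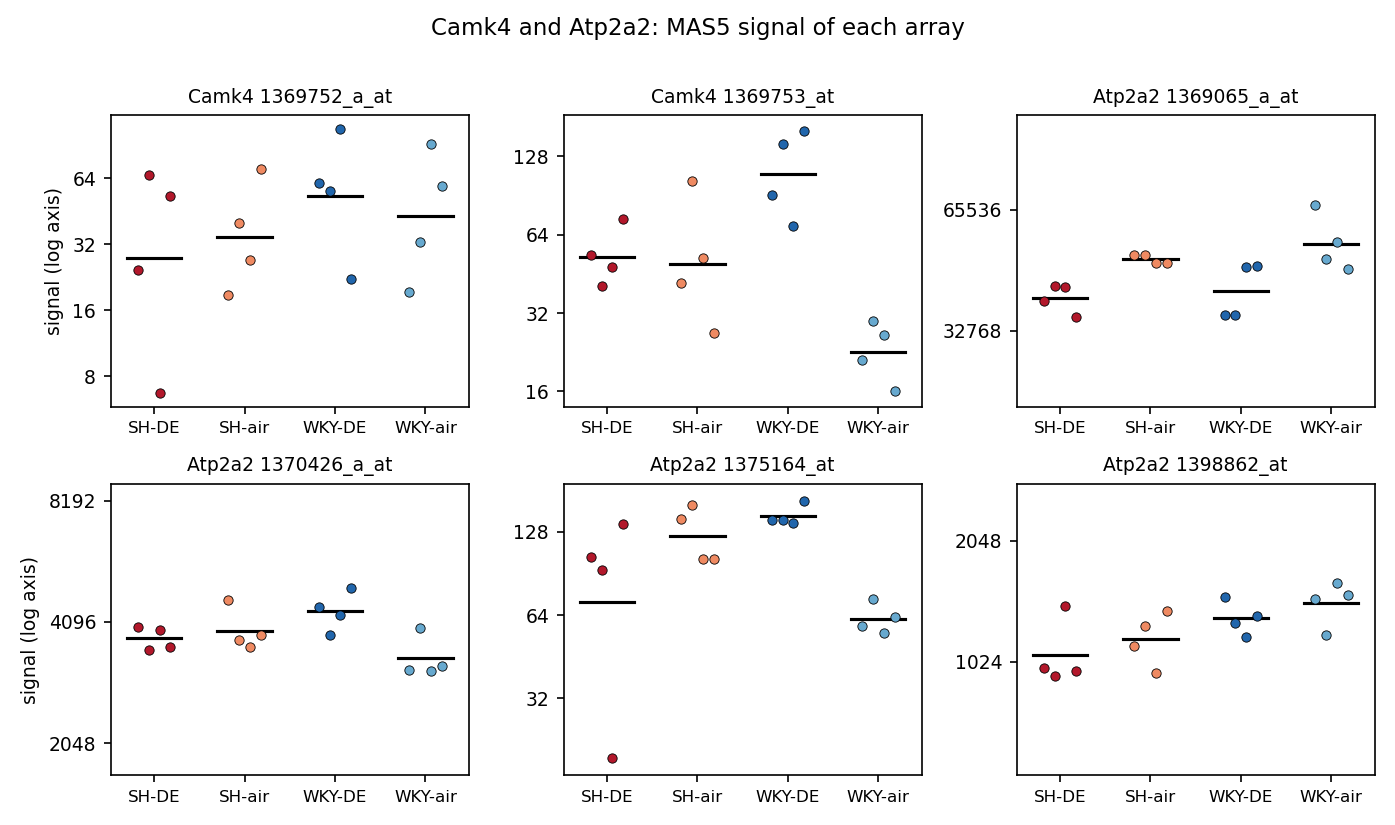
Signal of every array (points, log axis) for the 2 Camk4 and 4 Atp2a2 probe sets, by group, with the geometric mean as a line. Camk4 1369753_at and Atp2a2 1375164_at have every WKY-DE array above every WKY-air array, and Atp2a2 1369065_a_at has every SH-DE array below every SH-air array.

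The promoters of Atp2a2 and Pln are shown because they encode the pump and the protein that holds it back, and that of Camk4 because it alone was called. They are RefSeq sequences of the rat build GRCr8, from 250 bases before to 50 bases after the annotated start, and such a sequence was matched for all 9 genes. Capitals mark 3 motifs searched on both strands: the E-box CANNTG, the GC box GGGCGG or CCGCCC, and the CCAAT box CCAAT or ATTGG. The Atp2a2 promoter lies at chr12:39733269-39733568, that of Pln at chr20:33172244-33172543 and that of Camk4 at chr18:24856902-24857201, each on the plus strand.
Atp2a2: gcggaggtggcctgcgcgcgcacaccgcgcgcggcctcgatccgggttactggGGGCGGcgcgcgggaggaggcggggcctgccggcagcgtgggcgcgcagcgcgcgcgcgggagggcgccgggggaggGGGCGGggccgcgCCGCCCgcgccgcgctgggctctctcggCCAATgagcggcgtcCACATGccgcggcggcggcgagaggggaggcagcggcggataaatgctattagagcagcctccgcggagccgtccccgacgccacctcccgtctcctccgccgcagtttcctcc
Pln: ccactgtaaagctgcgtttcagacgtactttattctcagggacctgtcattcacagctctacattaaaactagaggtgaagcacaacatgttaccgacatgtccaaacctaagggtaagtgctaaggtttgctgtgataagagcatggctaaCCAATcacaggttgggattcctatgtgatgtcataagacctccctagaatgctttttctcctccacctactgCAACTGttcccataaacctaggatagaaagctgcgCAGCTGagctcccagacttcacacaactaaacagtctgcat
Camk4: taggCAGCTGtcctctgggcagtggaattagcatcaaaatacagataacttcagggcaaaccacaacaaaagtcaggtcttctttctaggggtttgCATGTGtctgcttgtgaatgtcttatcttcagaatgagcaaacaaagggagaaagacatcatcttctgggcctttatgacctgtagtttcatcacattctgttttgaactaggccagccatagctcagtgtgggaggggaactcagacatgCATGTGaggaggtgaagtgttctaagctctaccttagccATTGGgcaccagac
The Atp2a2 promoter was 79.0% G and C and held 3 GC boxes, 1 E-box and 1 CCAAT box. The Pln promoter was 45.0% G and C and held 2 E-boxes and 1 CCAAT box. The Camk4 promoter was 45.7% G and C and held 3 E-boxes and 1 CCAAT box, and neither it nor that of Pln held a GC box. Among 33469 rat promoters of 300 bases, 72.1% held an E-box, 33.1% a GC box and 37.5% a CCAAT box. No marked motifs overlapped in these 3 promoters, and a match describes the letters only.

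Pln, the inhibitor of the pump, did not pass the test in any comparison. Probe set 1370157_at had signals of 23870, 26994, 21803 and 24966 in SH-DE against 29625, 31154, 27709 and 27186 in SH-air. All 4 SH-DE arrays were lower than all 4 SH-air arrays, with a log2 difference of -0.25 ± 0.16 (limma adjusted p = 0.869) and a 95% interval of -0.59 to 0.10. In WKY rats the mean was 25940 ± 4717 in WKY-DE and 30897 ± 7218 in WKY-air (SD, n = 4 each), with a difference of -0.24 ± 0.16. The second probe set, 1388876_at, averaged 16749 ± 2114 in SH-DE and 20757 ± 1824 in SH-air, a log2 difference of -0.31 ± 0.15 (limma adjusted p = 0.806), and the second SH-DE array overlapped with SH-air. In WKY rats it averaged 19963 ± 3769 in WKY-DE and 20591 ± 3103 in WKY-air. Both probe sets are among the 100 brightest of the array, and after quantile normalization the differences in SH rats were -0.03 ± 0.11 and -0.19 ± 0.12. In WKY rats they were 0.06 ± 0.11 and 0.17 ± 0.12 after it, in place of -0.24 and -0.05.

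The brightest probe sets of the pump and its inhibitor varied together within groups, as deposited. With group means removed, the 2 Pln probe sets correlated at 0.91 over the 16 arrays, and Pln 1370157_at correlated with Atp2a2 1369065_a_at at 0.76, or 0.66 over 15 arrays without WKY-air replicate 1. With the other Atp2a2 probe sets it correlated at -0.20 (1370426_a_at), 0.19 (1375164_at) and -0.16 (1398862_at). After quantile normalization the correlation of the Pln pair was 0.65 and that of Pln with Atp2a2 was -0.45. The points share their array, its scaling and the brightness of its top probe sets. The Atp2a2 probe set also correlated at 0.72 within groups with the mean log2 level of Myl4 and Myl7, and Pln 1370157_at did at 0.45. Without SH-DE replicate 3 these values were 0.78 and 0.76 over 15 arrays.

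**Figure D3:**
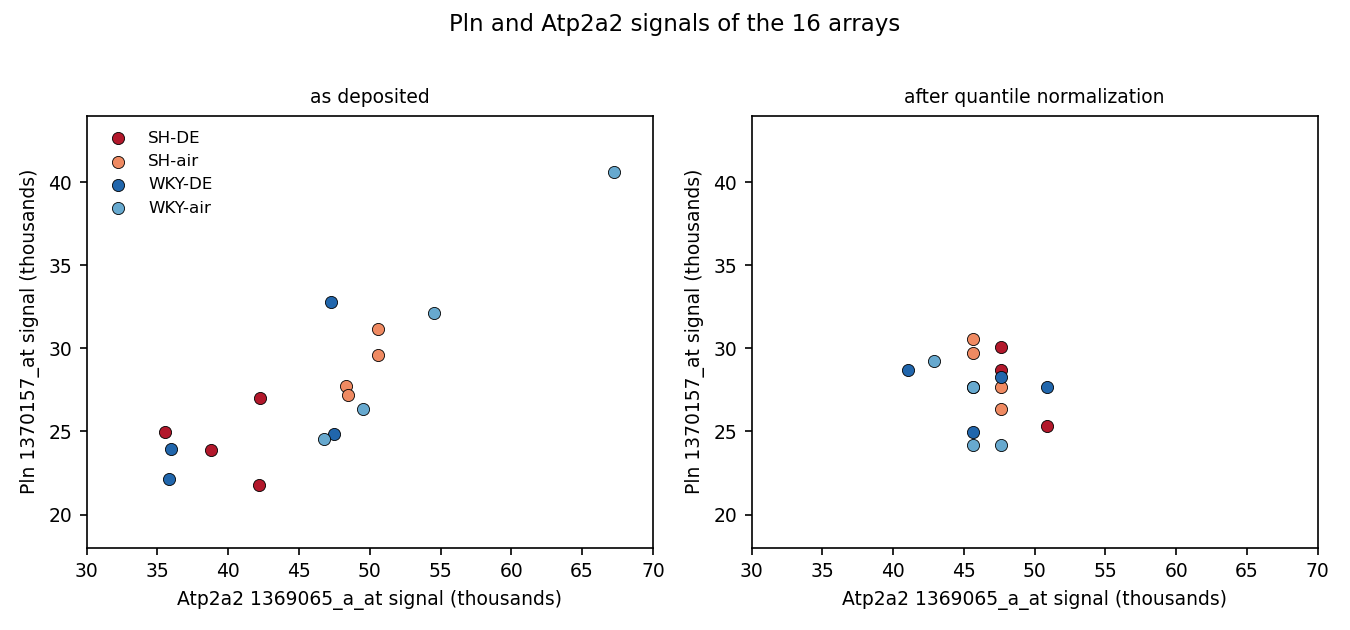
Signal of Pln 1370157_at (vertical axis, linear) against Atp2a2 1369065_a_at (horizontal axis, linear) on the 16 arrays, as deposited (left) and after quantile normalization (right, where some points coincide), coloured by group. As deposited, WKY-air replicate 1 is highest for both at 40584 and 67239, and after normalization the Atp2a2 signals lie between 41032 and 50881.

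Ryr2, the SR release channel, was measured by 1 probe set. Its signals were 4631, 3648, 3002 and 3043 in SH-DE against 4405, 4677, 3961 and 5132 in SH-air. In WKY rats they were 4121, 3964, 4040 and 5585 in WKY-DE against 2432, 4171, 4340 and 3632 in WKY-air. The groups overlapped in both strains, and the mean was lower with DE in SH rats and higher with DE in WKY rats. The log2 differences were -0.36 ± 0.19 in SH rats and 0.30 ± 0.19 in WKY rats, and the interaction of -0.66 ± 0.28 had limma adjusted p = 0.35, so a different effect in the strains was not called.

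Fkbp1b, whose protein binds that channel, could not be followed. Its 1 probe set had signals of 2.64 to 6.79 in SH-DE, 2.83 to 8.56 in SH-air, 3.3 to 8.61 in WKY-DE and 2.34 to 5.1 in WKY-air. All 16 values were below the offset, and no fold change is given. The table used here holds signals without detection calls.

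Casq2, the calcium buffer of the SR, was measured by 2 probe sets and neither was called. Probe set 1368988_at averaged 14412 ± 1618 in SH-DE and 14625 ± 1038 in SH-air, and 13617 ± 824 in WKY-DE and 14206 ± 1698 in WKY-air (SD, n = 4 each). The log2 difference was -0.03 with a 95% interval of -0.28 to 0.23 in SH rats and -0.06 with an interval of -0.31 to 0.20 in WKY rats, both within 1.5-fold. Probe set 1387401_at averaged 7389 ± 1137 in SH-DE and 7569 ± 1383 in SH-air, and 6329 ± 491 in WKY-DE and 7978 ± 1606 in WKY-air. Its difference in WKY rats was -0.31 ± 0.17 (limma adjusted p = 0.312). The Casq2 probe sets correlated at 0.60 within groups over 16 arrays. Casq2 1387401_at ran opposite to Atp2a2 1370426_a_at, at -0.80 within groups, or -0.75 after quantile normalization. This was the lowest value among all pairs of member probe sets. The other pairs of Casq2 and Atp2a2 probe sets correlated between -0.30 and 0.33.

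At the surface membrane, neither the calcium channel nor the exchanger was called. Cacna1c 1370452_at averaged 856 ± 63.3 in SH-DE and 831 ± 150 in SH-air, and 1025 ± 191 in WKY-DE and 875 ± 62.6 in WKY-air (SD, n = 4 each), with a log2 difference of 0.06 ± 0.15 in SH rats and 0.21 ± 0.15 in WKY rats. Cacna1c 1370451_a_at averaged 207 ± 58.2 in SH-DE and 245 ± 15.5 in SH-air, and 204 ± 29.7 in WKY-DE and 203 ± 40.5 in WKY-air, with differences of -0.27 ± 0.19 and 0.02 ± 0.19. The exchanger probe set Slc8a1 1372449_at had 2950, 2832, 3024 and 2918 in SH-air against 2246, 2562, 2571 and 2609 in WKY-air. Every SH-air array was above every WKY-air array, and the log2 difference was 0.23 ± 0.11 (limma adjusted p = 0.288). Under DE the signals were 2751, 2719, 2352 and 3164 in SH-DE against 2520, 2466, 2877 and 2475 in WKY-DE, which overlapped, with a difference of 0.08 ± 0.11. Slc8a1 1370588_a_at spread from 85.5 to 256 over the 16 arrays, and its log2 difference was -0.30 ± 0.28 in SH rats and -0.19 ± 0.28 in WKY rats.

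Camk2d encodes the main cardiac form of calmodulin-dependent kinase II, which phosphorylates phospholamban and the ryanodine receptor. Probe set 1368834_at had signals of 2885, 2957, 3528 and 2847 in WKY-DE against 3348, 3927, 3699 and 4260 in WKY-air. The third WKY-DE array exceeded the lowest WKY-air array, and the log2 difference was -0.32 ± 0.12 (limma adjusted p = 0.162). In SH rats it averaged 3070 ± 345 in SH-DE and 3179 ± 260 in SH-air, a difference of -0.05 with a 95% interval of -0.31 to 0.21. The interaction was 0.26 ± 0.17 and was not called. Probe set 1371263_a_at averaged 406 ± 36.1 in SH-DE and 476 ± 83.5 in SH-air, and 455 ± 60.4 in WKY-DE and 433 ± 30.1 in WKY-air. Probe set 1368833_at ran from 24.9 to 148 over the 16 arrays, and its log2 difference was -0.12 ± 0.44 in SH rats and -0.17 ± 0.44 in WKY rats. Camk2d 1368834_at and Slc8a1 1372449_at correlated at 0.83 within groups over 16 arrays, and at 0.82 after quantile normalization. This was the highest value between different member genes. The other pairs of Camk2d and Slc8a1 probe sets correlated between -0.36 and 0.48.

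**Figure D4:**
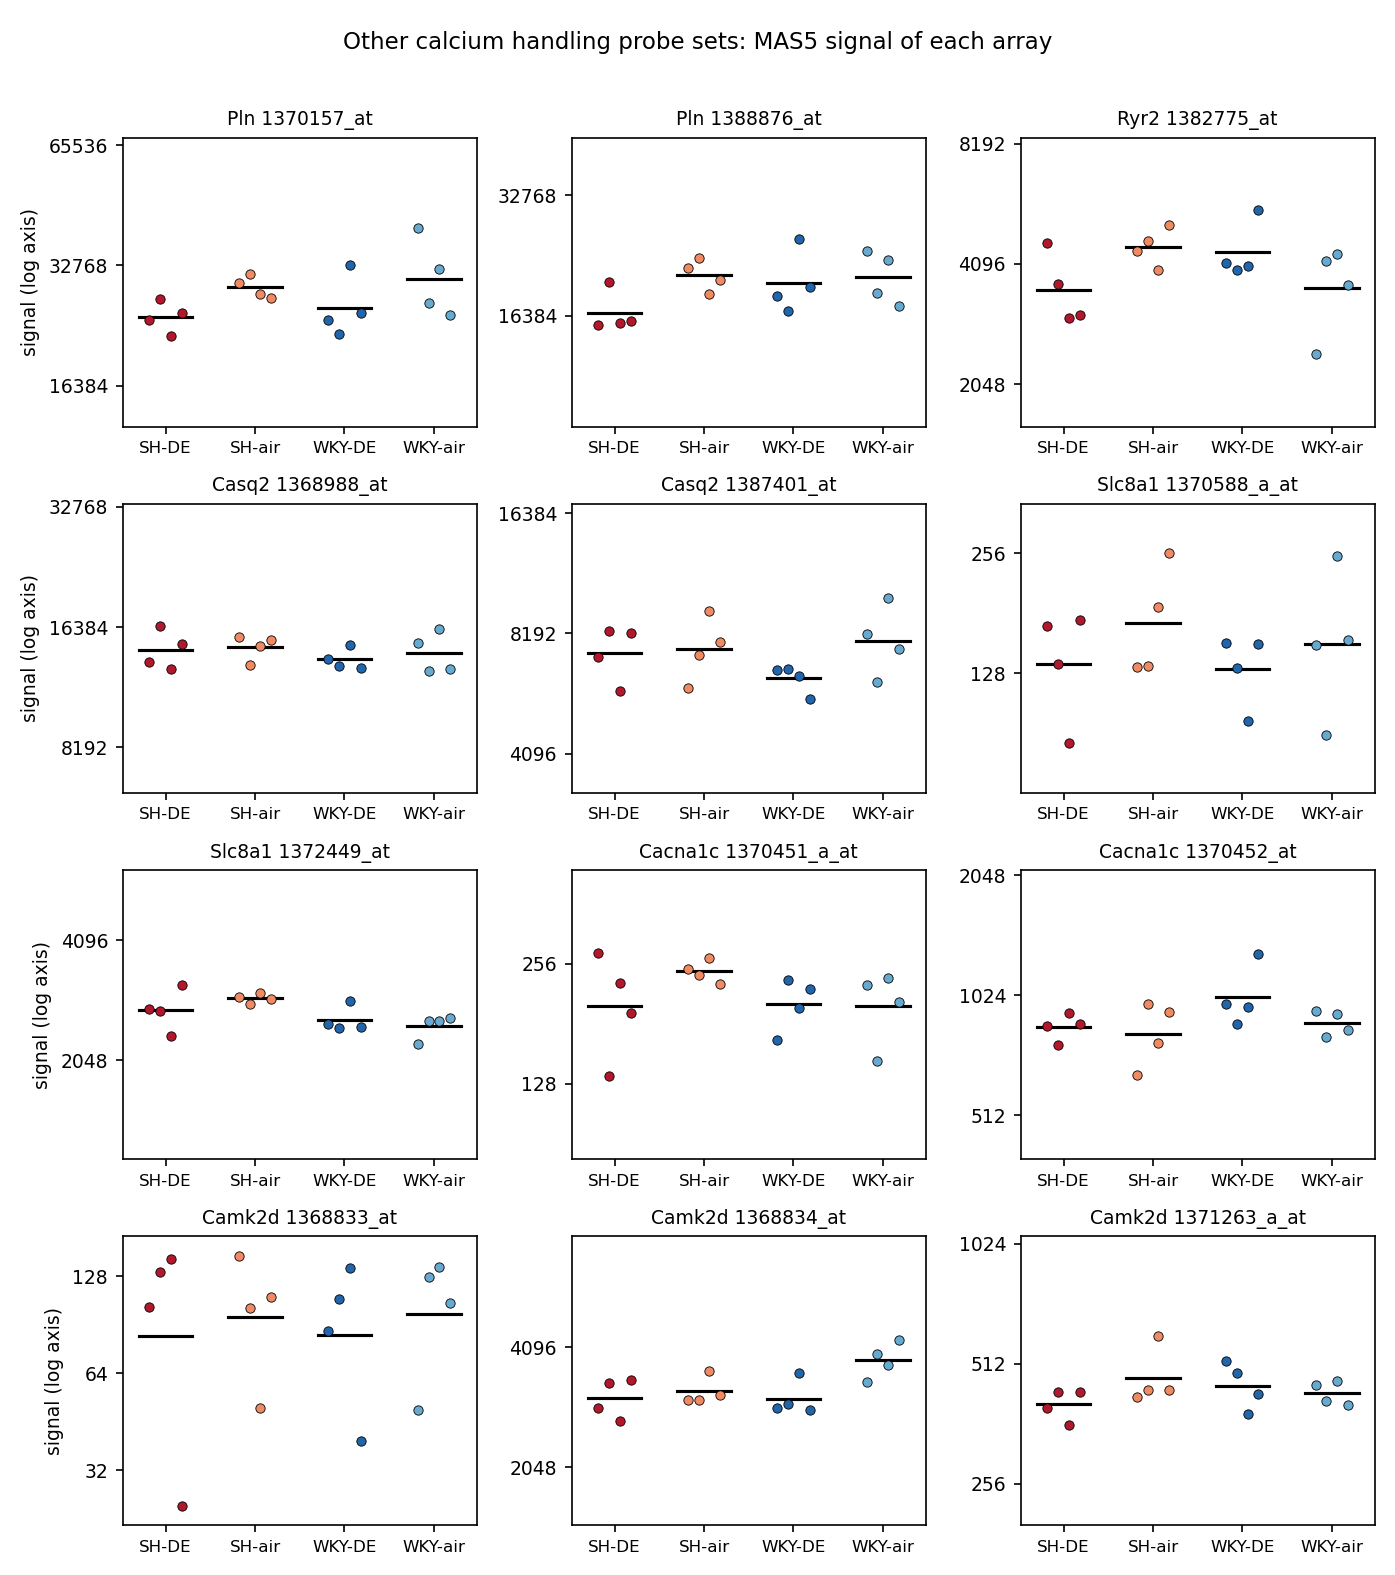
Signal of every array (points, log axis) for the 12 probe sets of Pln, Ryr2, Casq2, Slc8a1, Cacna1c and Camk2d, by group, with the geometric mean as a line. Pln 1370157_at in SH-DE lies below SH-air, Slc8a1 1372449_at in SH-air lies above WKY-air, and in both strains the DE and air groups overlap in the other panels.

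Camk4 encodes calmodulin-dependent kinase IV, best known from neurons and T lymphocytes, where it acts on transcription. Probe set 1369753_at had signals of 90.8, 143, 69.1 and 160 in WKY-DE against 21.1, 29.9, 26.3 and 16.1 in WKY-air. In SH rats it had 53.5, 40.6, 48.1 and 73.4 in SH-DE against 41.8, 103, 52.2 and 26.9 in SH-air. Every WKY-DE array was above every WKY-air array, and the SH groups overlapped each other. The log2 difference in WKY rats was 1.69 ± 0.29, or 3.22-fold on the offset scale, with a 95% interval of 1.07 to 2.30 (limma adjusted p = 0.0202). In SH rats it was 0.04 ± 0.29, with an interval of -0.57 to 0.65.

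By group mean of the linear signal the order of this probe set was WKY-DE, SH-air, SH-DE and WKY-air. On the log2 scale SH-DE was above SH-air, by 0.04, and the SH groups did not differ beyond their spread. SH-DE differed from WKY-DE by -0.87 ± 0.29 (limma adjusted p = 0.196) and SH-air from WKY-air by 0.78 ± 0.29 (limma adjusted p = 0.173). The interaction of -1.65 ± 0.41 had limma adjusted p = 0.185, so that the DE effect in WKY rats was not shown to differ from that in SH rats. The signal was low throughout. On 10 of 16 arrays it was below the 25th percentile of all signals, and on 1 it was below the offset. Over the alternative settings the difference in WKY rats ran from 1.02 with the offset at the 25th percentile to 2.22 with an offset of 1, and it was called in limma in both, with adjusted p = 0.0157 and adjusted p = 0.0235. After quantile normalization the difference was 1.49 ± 0.28 and was called (limma adjusted p = 0.0328). Without WKY-DE replicate 2 the difference was 1.58 and was not called (limma adjusted p = 0.0556).

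The second Camk4 probe set, 1369752_a_at, had 60.7, 55.8, 108 and 22.1 in WKY-DE against 19.4, 32.6, 91.5 and 58.9 in WKY-air. The groups overlapped, and the log2 difference was 0.23 ± 0.46, with a 95% interval of -0.75 to 1.21. In SH rats it was -0.12 ± 0.46. The 2 Camk4 probe sets correlated at -0.30 within groups over 16 arrays, and the second was below the 25th percentile of all signals on 12 of them. The call thus rests on 1 probe set of the gene.

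Among named genes, the profiles most like that of Camk4 1369753_at over the 16 arrays were those of Wrap53 (r = 0.88), Crygs (r = 0.87) and Scnn1b (r = 0.87). With group means removed the correlations were 0.62 for Wrap53, 0.74 for Crygs and 0.66 for Scnn1b, and the arrays share their groups and scaling. Scnn1b, a subunit of the epithelial sodium channel, had signals of 243, 284, 278 and 288 in WKY-DE against 163, 170, 168 and 174 in WKY-air. Its mean was 200 ± 14.5 in SH-DE and 181 ± 30.4 in SH-air (SD, n = 4 each).

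Markers of T and B lymphocytes were set beside Camk4, since T cells are known for this kinase. Of 9 markers, 8 were on the array, and their summed signal was 674 to 884 in WKY-DE against 552 to 614 in WKY-air, and 628 to 811 in SH-DE against 499 to 849 in SH-air. Cd3g, a part of the T cell receptor complex, was called higher in WKY-DE, at 84.9, 149, 112 and 169 in WKY-DE against 34.8, 33.6, 63.4 and 35.8 in WKY-air, with a log2 difference of 1.31 ± 0.28 (limma adjusted p = 0.0345). The other 7 were not called. In WKY rats Cd3d differed by 0.10 ± 0.38, Cd2 by 0.46 ± 0.36, Cd4 by 0.25 ± 0.21 and Cd8a by 0.50 ± 0.39. Lck differed by 0.25 ± 0.17, Cd79b by 0.09 ± 0.32 and Cd3e by -0.05 ± 0.59. The median in that comparison was 0.10 over the array, and up to 0.27 among the dimmer probe sets described above. Within groups, Camk4 1369753_at correlated at 0.34 with the mean log2 level of the 8 markers over 16 arrays. Their part in the Camk4 difference was not tested. With the level of Myl4 and Myl7 as a covariate the Camk4 difference was 1.52 ± 0.34 and was not called (limma adjusted p = 0.0946), in a fit that called 5 probe sets of the array in place of 298.

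Beyond the 9 genes, 6 lists of calcium handling genes held 116 genes on the array with 175 probe sets. Of these, 2 were called between WKY-DE and WKY-air (1.14%, beside 1.88% of the array) and 0 between SH-DE and SH-air (beside 0%). Between SH-DE and WKY-DE 1 was called (0.571%, beside 0.813%), and between SH-air and WKY-air 2 were (1.14%, beside 3.15%). Between SH-DE and WKY-air 2 were called (1.14%, beside 1.94%), and in the interaction 0 were (beside 0.0063%). The median log2 difference of the 175 was -0.06 between SH-DE and SH-air, beside 0.00 over the array, and 0.06 between WKY-DE and WKY-air, beside 0.10.

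Of the 34 probe sets for membrane calcium and sodium transport, the 1 called between WKY-DE and WKY-air was Trpm7 1398355_at, a channel for divalent ions that is also a kinase. It had 283, 262, 222 and 170 in WKY-DE against 64.6, 94, 91 and 92.6 in WKY-air, all WKY-DE arrays being higher. The log2 difference was 1.29 ± 0.19 (limma adjusted p = 0.0146). In SH rats it was 0.37 ± 0.19 (adjusted p = 0.821, limma), between 204 ± 40.3 in SH-DE and 154 ± 31.3 in SH-air, and the interaction of -0.91 ± 0.27 was not called (limma adjusted p = 0.225). SH-air was also higher than WKY-air, by 0.73 ± 0.19 (limma adjusted p = 0.049), a call made in 8 of 27 alternative settings, whereas that in WKY-DE was made in 25 of 27. A second Trpm7 probe set, 1369059_at, differed by 0.39 ± 0.25 in WKY rats and was not called. Trpm7 1398355_at was also called higher in SH-DE than in WKY-air, by 1.11 ± 0.19 (limma adjusted p = 0.00856), in 26 of 27 alternative settings. Rrad, which holds back L-type channels, was called lower in SH-DE than in WKY-air, at 2440 ± 179 in SH-DE and 3951 ± 600 in WKY-air (-0.68 ± 0.12, limma adjusted p = 0.0121). That call, which mixes strain with exposure, was made in 23 of 27 alternative settings. Its strain difference was -0.45 ± 0.12 in air and -0.40 ± 0.12 under DE. Its DE difference was -0.23 ± 0.12 in SH rats and -0.29 ± 0.12 in WKY rats, and none of these was called.

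In the list of calmodulin, its kinases and calcineurin, with 43 probe sets, Ppp3cb 1387261_at, a catalytic subunit of the phosphatase calcineurin, was called higher at 337, 382, 407 and 367 in WKY-DE against 202, 176, 264 and 202 in WKY-air. The difference was 0.79 ± 0.16 (limma adjusted p = 0.0308) and the groups did not overlap, while a second probe set of the gene, 1375882_at, differed by -0.12. Mef2d 1369851_at, a transcription factor that calcium-dependent kinases act on, was called lower at 301, 340, 298 and 213 in SH-DE against 844, 454, 906 and 1058 in WKY-DE, with a difference of -1.41 ± 0.30 (limma adjusted p = 0.0457). Its mean was lower with DE in SH rats (-0.80 ± 0.30, limma adjusted p = 0.749) and higher with DE in WKY rats (0.99 ± 0.30, limma adjusted p = 0.0941), and the interaction of -1.79 ± 0.43 was not called (adjusted p = 0.172, limma). A second Mef2d probe set, 1398427_at, differed by -0.10 between SH-DE and WKY-DE. The Ppp3cb call was made in 15 of 27 alternative settings, but not after quantile normalization, and that of Mef2d in 10 of 27.

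Of the 33 probe sets of SR partners 1 was called, Sln 1374391_at, an inhibitor of the SR pump expressed mainly in atrium. It had 174, 105, 68.1 and 31.1 in SH-air against 8873, 1471, 2968 and 2225 in WKY-air, a log2 difference of -4.97 ± 1.25 (limma adjusted p = 0.0436). Under DE it had 92.4, 422, 2668 and 9.59 in SH-DE against 140, 76.6, 2748 and 801 in WKY-DE. The atrial light chains were also called lower in SH-air than in WKY-air, Myl7 by -7.08 ± 1.20 (limma adjusted p = 0.00581) and Myl4 by -4.80 ± 0.95 (limma adjusted p = 0.0153). Sln was not called in the covariate fit. The level of Myl4 and Myl7 did not overlap between SH-air and WKY-air, so that fit cannot separate it from strain. The part of atrial tissue in the Sln difference was not tested otherwise. The Sln call was made in 10 of 27 alternative settings, with differences of -5.32 to 1.36, so its sign was not kept in all of them.

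The other 3 lists had no call. In the list for protein kinase A and phosphatase control of phospholamban, with 37 probe sets, the lowest p belonged to Hspb1. This is a small heat shock protein, neither a kinase nor a phosphatase. It averaged 3475 ± 449 in WKY-DE and 5595 ± 908 in WKY-air (SD, n = 4 each), a log2 difference of -0.68 ± 0.17 (limma adjusted p = 0.0553). Hspb1 differed by -0.39 ± 0.17 between SH-DE and SH-air and by 0.58 ± 0.17 between SH-DE and WKY-DE, neither called. Prkar2a, a regulatory subunit of the kinase, differed by -0.73 ± 0.19 between 87.7 ± 19.8 in SH-DE and 154 ± 13.6 in WKY-DE (limma adjusted p = 0.1), while its other 2 probe sets differed by -0.09 and -0.12. For mitochondrial calcium uptake, with 12 probe sets, Micu2, which gates the uniporter, averaged 1449 ± 163 in SH-air and 1116 ± 177 in WKY-air (0.38 ± 0.14, limma adjusted p = 0.165). Ppif, the cyclophilin of the permeability transition pore, averaged 1096 ± 294 in SH-DE and 805 ± 76 in WKY-air (0.40 ± 0.17, limma adjusted p = 0.251), which mixes strain with exposure. Its DE difference was 0.09 ± 0.17 in SH rats and 0.12 ± 0.17 in WKY rats. Between the strains it differed by 0.31 ± 0.17 in air and by 0.28 ± 0.17 under DE. For myofilament calcium sensing, with 16 probe sets, the troponin subunit Tnnt2 averaged 35530 ± 7249 in WKY-DE and 49600 ± 4235 in WKY-air (-0.50 ± 0.17, limma adjusted p = 0.119), and Tnni3 averaged 29886 ± 4429 in WKY-DE and 39044 ± 4756 in WKY-air (-0.39 ± 0.13, limma adjusted p = 0.113). A second Tnnt2 probe set, 1390061_at, differed by 0.56 ± 0.43 in WKY rats and was not called. The Tnnt2 and Tnni3 means given here were above those of Pln 1370157_at, which is among the 100 brightest probe sets. The median of those 100 was -0.25 between WKY-DE and WKY-air. The median of the myofilament list was -0.21 between SH-DE and SH-air, beside 0.00 over the array, and -0.08 between WKY-DE and WKY-air, beside 0.10.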

How the data were processed

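RNA of the left ventricle of 16 rats, 1 array each, was measured on Affymetrix rat expression arrays. The deposited values were 1 linear intensity for each probe set of an array, made by the authors with MAS5, whose version is not given in the sources used here, and scaled to a target of 500. With 2% trimmed at each end, every array had a mean of 500.2. The authors' own gene lists came from another summary of the same arrays, which was not used here. Of 15923 probe sets, 57 controls were left out. The annotation gave 1 gene for 12783 of the other 15866, several genes for 312 and listed no entry for 2771, and 12748 symbols were matched by gene number. Signals plus 16.2, their 10th percentile, were taken to log2 and fitted in limma 3.58.1 (R 4.3.3) as 1 model of 4 group means over 16 arrays, with 12 residual and 2.69 prior degrees of freedom. P-values were adjusted by Benjamini-Hochberg over all 15866. They set each group difference against the moderated spread between rats within groups, and 4 arrays per group limit the precision. The script was tested on simulated data.

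The members and gene lists were chosen with earlier results of these data known. Named were all member probe sets, the called members of each wider list or else those 2 with the lowest p, the 3 profiles most like a called member, and atrial markers. For a marker gene with several probe sets the brightest was used, whereas in the wider lists the probe set with the call or the lowest p was. Alternatives were other offsets, quantile normalization, a filter on dim probe sets, moderation by intensity, array weights, a block for the replicate number, fits of only those groups compared, a stricter threshold and each array left out. A covariate for atrial light chains and a fit without 2 arrays were added after seeing the data. Same-numbered arrays of different groups correlated at -0.19 to 0.15 after removal of group means. The main fit did not pair rats by number, but such values cannot show that the numbers carry no shared batch.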

Additional observations from a re-analysis of the deposited data

Results flagged for a closer look

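In 8 of 76 sets of 4 arrays (19 probe sets in 4 groups), 1 array stood apart from the other 3 by more of the group's whole range than Dixon's 95% critical value, a limit that chance passes in about 1 in 20 groups, or 3.8 of 76. Atp2a2 1370426_a_at was highest at 3967 in WKY-air replicate 2, Atp2a2 1375164_at at 166 in WKY-DE replicate 4, and Atp2a2 1398862_at at 1412 in SH-DE replicate 3. Pln 1388876_at was highest at 19911 in SH-DE replicate 2, and Ryr2 1382775_at at 5585 in WKY-DE replicate 4. Slc8a1 1372449_at was highest at 2877 in WKY-DE replicate 3 and lowest at 2246 in WKY-air replicate 1. Camk2d 1371263_a_at was highest at 600 in SH-air replicate 3.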

How the results depend on the processing

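Between SH-DE and SH-air and in the interaction, no probe set of the members or of the wider lists was called under any alternative. The count of members called between WKY-DE and WKY-air, 1 as reported, was 0 with the dimmest 40% of probe sets left out (which removes Camk4), 0 at an adjusted p under 0.01, 0 with the Myl4 and Myl7 covariate, 2 with the compared groups alone and 2 without WKY-DE replicate 3 and SH-DE replicate 3, and it ran from 0 (without WKY-DE replicate 2) to 2 (without SH-DE replicate 3) when single arrays were left out. Between SH-air and WKY-air, 0 as reported, it was 1 without both of those arrays and 0 to 1 with single arrays left out. Between SH-DE and WKY-air, 0 as reported, it was 1 with moderation by intensity and 0 to 1 with single arrays left out.

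The wider lists' 2 calls between WKY-DE and WKY-air became 6 with the offset at the 25th percentile, 1 after quantile normalization, 9 without the dimmest 40%, 13 with moderation by intensity, 7 with array weights, 1 with the compared groups alone, 0 with the covariate, 0 at an adjusted p under 0.01 and 1 to 6 with single arrays left out. Between SH-air and WKY-air, the 2 became 1 with an offset of 1, 4 with the offset at the 25th percentile, 7 without the dimmest 40%, 7 with moderation by intensity, 1 with the compared groups alone, 0 with the covariate, 0 at an adjusted p under 0.01 and 0 to 3 with single arrays left out. Between SH-DE and WKY-DE, the 1 became 0 with an offset of 1, 3 with moderation by intensity, 0 with the compared groups alone, 0 with the covariate, 0 at an adjusted p under 0.01 and 0 to 1 with single arrays left out. Between SH-DE and WKY-air, the 2 became 5 without the dimmest 40%, 6 with moderation by intensity, 4 with array weights, 1 with the compared groups alone, 0 with the covariate, 7 without both arrays, 1 at an adjusted p under 0.01 and 1 to 8 with single arrays left out.

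With a replicate block in the fit, the members' counts of calls were as reported, and the wider lists had 1 call between WKY-DE and WKY-air, 0 between SH-air and WKY-air and 0 between SH-DE and WKY-DE. Over the whole array the block gave 113 calls in place of 298 between WKY-DE and WKY-air, 315 in place of 499 between SH-air and WKY-air, 70 in place of 129 between SH-DE and WKY-DE and 169 in place of 308 between SH-DE and WKY-air. Of 24 same-numbered pairs 2 correlated above 0.1, and 2 of 16 arrays were closest to one of their own number.

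Atp2a2 1369065_a_at changed sign after quantile normalization, to 0.02 between WKY-DE and WKY-air, 0.04 between SH-DE and SH-air and 0.08 between SH-DE and WKY-air, and Atp2a2 1375164_at changed sign to -0.23 between SH-air and WKY-air with the covariate, whose level did not overlap between those groups. Apart from the ranks described for the first, the cause was not tested. Of 114 member differences, 21 changed sign after quantile normalization and 29 with the covariate. The members' median stayed at -0.21 to -0.06 between SH-DE and SH-air, and at -0.07 to 0.07 between WKY-DE and WKY-air. Camk4 and Fkbp1b are limited by low signal over background.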
